A study of Mus musculus with 4 samples.

Results

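Blnc1 (brown fat lncRNA 1) is a long noncoding RNA of brown fat. The genes described here are the early B-cell factors Ebf1, Ebf2, Ebf3 and Ebf4, the fate regulator Prdm16, and the factors Zfp423, Zfp516, Ehmt1, Ctbp1 and Ctbp2, which act with or beside them in deciding brown fat identity. They were found through the array's annotation, taking every probe set that carries exactly 1 gene symbol, that of a member. This gave 19 probe sets for 9 of the 10 genes, out of 23599 probe sets and 10926 genes measured. No expression value of Ebf4 was analysed here, and 1 probe set that names Ctbp2 together with another gene was left out.

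The samples were mouse brown adipocytes of wild-type genotype, differentiated for 6 days from preadipocytes that expressed either a vector or Blnc1. There were 4 Affymetrix arrays, 2 of vector cells and 2 of Blnc1 cells, and their number limits the precision. The replicates are labelled as biological, with nothing on separate cultures or transductions, so p-values here reflect the spread between these arrays alone. All values are log2 expression values of the RMA type, in which a difference of 1 is a 2-fold change. The sources used here do not say how the preadipocytes were made to express Blnc1 or from which animals they came.

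EBF proteins are DNA-binding factors that recognise a palindromic site, and EBF2 marks brown fat precursors and opens brown fat genes for PPARG and PRDM16. Published work places EBF2 in a complex with Blnc1. PRDM16 is a zinc finger protein that switches on brown genes and, with the corepressors CTBP1 and CTBP2, holds white fat genes down, while the histone methyltransferase EHMT1 is needed for it to keep muscle genes off. ZFP516 is a cold-induced activator that works with PRDM16. ZFP423 commits cells to the fat lineage and restrains the brown programme by binding EBF2.

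Defining genes of fat cells were bright on the arrays: Adipoq, Fabp4, Pparg, Cebpa, Lpl and Cd36 had means over the 4 arrays of 9.76 to 13.28, where the array medians lay between 5.98 and 6.04. Markers of other cells that could hold EBF RNA were low, with means of 4.04 and 4.25 for Vpreb3 and Ms4a1, the 2 measured of 8 B cell genes, and 3.90 for Stmn2, the 1 measured of 7 neuronal genes. The means of 3 macrophage genes lay between 4.22 and 4.65 and that of the endothelial gene Kdr was 4.23. None of these 7 passed the test described below, and their log2 fold changes lay between -0.17 and 0.16. The brighter probe set of the Blnc1 transcript read 8.08 and 8.14 in the vector arrays against 12.73 and 12.75 in the Blnc1 arrays. Its dimmer probe set read 6.82 and 6.40 against 6.35 and 6.24, at -0.31 (limma adjusted p = 0.315), and whether it lies in the expressed sequence was not analysed here. Other shifts separated the same groups. The 18 spiked-in hybridisation controls were all lower in Blnc1 arrays (median difference -0.27). The difference between 3' and 5' control probe sets was lower, by -0.13 for Gapdh and -0.17 for Actb. The X-linked Xist was higher by 0.55, and the Y-linked Eif2s3y, Kdm5d and Uty were lower (-1.18, -0.87 and -1.02). These sex-linked genes all passed the test described below (limma adjusted p of 0.012 to 0.0479). The part of all these shifts in the results was not tested.

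The comparison asked whether Blnc1 cells differ from vector cells in the RNA of these regulators. Ebf2 was the member with the widest separation: no vector array reached a Blnc1 array on any of its 3 probe sets, and the differences were 1.23-fold to 1.30-fold. The brightest probe set of Prdm16 was 1.17-fold higher in Blnc1 cells, and its other 2 probe sets overlapped between the groups. Ebf1, Ebf3, Zfp423, Zfp516, Ehmt1, Ctbp1 and Ctbp2 had log2 fold changes between -0.16 and 0.20. None of the 19 probe sets passed limma's test at an adjusted p of 0.05, with Benjamini-Hochberg adjustment over all probe sets; across the array 0.928% of probe sets passed. At an unadjusted p under 0.05 there were 4 of the 19, 3 of Ebf2 and 1 of Prdm16, against 18.9% of all probe sets. Groups did not overlap for 12 of the 19, 9 with Blnc1 higher (26.4% of all probe sets) and 3 with Blnc1 lower (24%), against 50.4% of all probe sets in either direction. As shares of the 19, these are 21.1% at the unadjusted p, 63.2% without overlap, 47.4% with Blnc1 higher and 15.8% with Blnc1 lower. The probe sets of a gene read the same RNA, and 3 of the 9 that were higher are those of Ebf2. Of the log2 fold changes 13 of 19 were above 0, the median being 0.056 against 0.0056 for all probe sets.

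**Figure D1:**
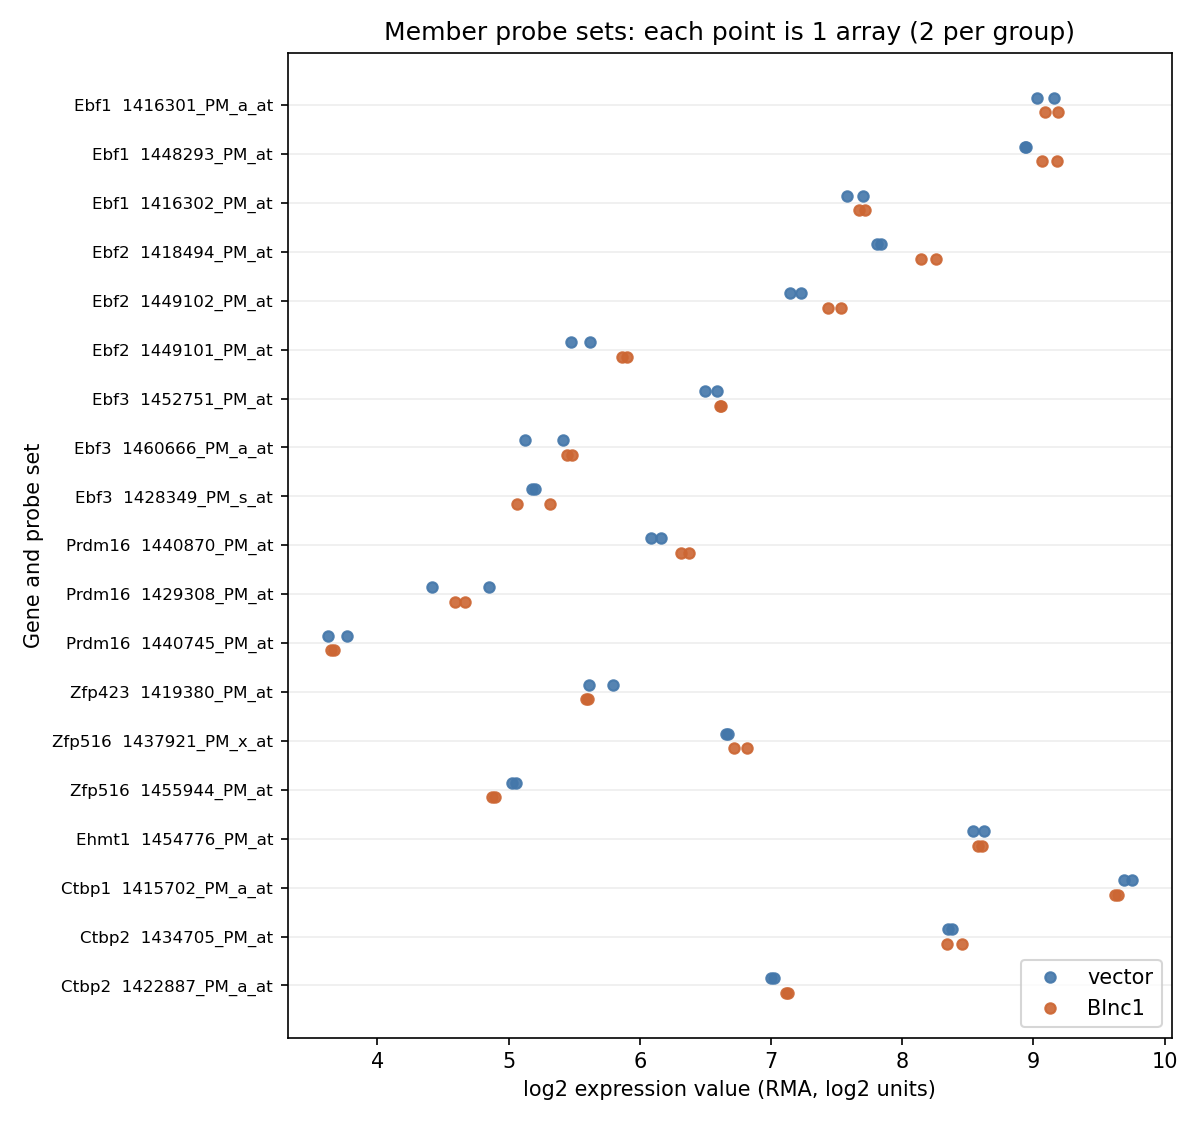
Log2 expression values of the 19 probe sets in each of the 4 arrays; each point is 1 array, with vector arrays in blue and Blnc1 arrays in orange, and rows are grouped by gene. The 3 Ebf2 rows show the Blnc1 arrays to the right of the vector arrays by gaps of 0.20 to 0.31, while points overlap in 2 of the 3 rows of Ebf1 and of Prdm16.

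Ebf2 encodes the member of the family tied to brown precursors. Its brightest probe set (1418494_PM_at) read 7.84 and 7.81 in the vector arrays and 8.26 and 8.14 in the Blnc1 arrays. The lowest Blnc1 array lay 0.31 above the highest vector array, a gap wider than the distance between replicates of either group, 0.026 (vector) and 0.12 (Blnc1). The group means were 7.82 ± 0.019 and 8.20 ± 0.083 (SD, n = 2 each). The log2 fold change was 0.38 ± 0.082 (SE), with a 95% interval of 0.18 to 0.58, and the limma adjusted p was 0.0971. In linear terms the interval runs from 1.13-fold to 1.496-fold.

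The other 2 Ebf2 probe sets gave values of like size. The first (1449102_PM_at) read 7.23 and 7.14 in vector and 7.54 and 7.43 in Blnc1 arrays, which is 0.30 ± 0.084 higher on the log2 scale (SE, limma adjusted p = 0.149). The dimmest (1449101_PM_at) read 5.48 and 5.62 in vector and 5.90 and 5.87 in Blnc1 arrays, which is 0.34 ± 0.087 higher (SE, limma adjusted p = 0.131). In each of the 3, Blnc1 replicate 1 was the highest array, and no vector array reached a Blnc1 array. The probe sets read the same RNA samples, so they are not 3 independent measurements. The call for the brightest probe set differed between settings. It passed when the variance prior was allowed to follow the expression level (limma adjusted p = 0.00973, with 2174 probe sets called in all) and when only probe sets brighter than the median were tested (0.0339, with 1020 called). Over its 12 alternatives the adjusted p ran from 0.00973 to 0.296. Leaving out each array in turn gave log2 fold changes of 0.32 to 0.44, none past the threshold.

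Ebf1, the family member that drives B cell fate and also takes part in fat cell differentiation, differed less. Its brightest probe set read 9.03 and 9.16 in vector and 9.09 and 9.19 in Blnc1 arrays, so the groups overlapped, with a log2 fold change of 0.048 (95% interval -0.17 to 0.26). A further probe set read 8.94 and 8.93 against 9.18 and 9.07 and did not overlap, at 0.19 ± 0.081 (SE, limma adjusted p = 0.292). The dimmest of the 3 read 7.58 and 7.70 against 7.72 and 7.67, at 0.056, again with overlap. The probe sets of Ebf1 thus gave different pictures, and their lower bounds all fell below 0.

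Ebf3 belongs to the same family and is best known from neurons. Its brightest probe set read 6.50 and 6.59 in vector and 6.61 and 6.62 in Blnc1 arrays, a log2 fold change of 0.076 (95% interval -0.12 to 0.27). A dim probe set stood at 0.20 (-0.078 to 0.47), where a single vector array at 5.13 lay far below the other at 5.41. The dimmest stood at -9e-04, with the Blnc1 arrays at 5.32 and 5.06 on either side of the vector arrays at 5.18 and 5.20.

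The distance between Ebf2 and its relatives was taken within each array, on the brightest probe set of each gene. The log2 fold change of Ebf2 exceeded that of Ebf1 by 0.33 and that of Ebf3 by 0.30. It exceeded the others by 0.16 (Prdm16) to 0.49 (Zfp423). In every one of these 8 comparisons the 4 pairs of a Blnc1 with a vector array all gave a positive difference. Ebf2 had the largest change of the members, so positive mean differences were fixed beforehand. All 8 comparisons share its values, and the 4 pairs reuse the same arrays, so the tally is no repeated support. With 2 arrays against 2, a two-sided exact permutation test cannot go below p = 0.333, so it could not show a difference between members, and these values are a description.

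**Figure D2:**
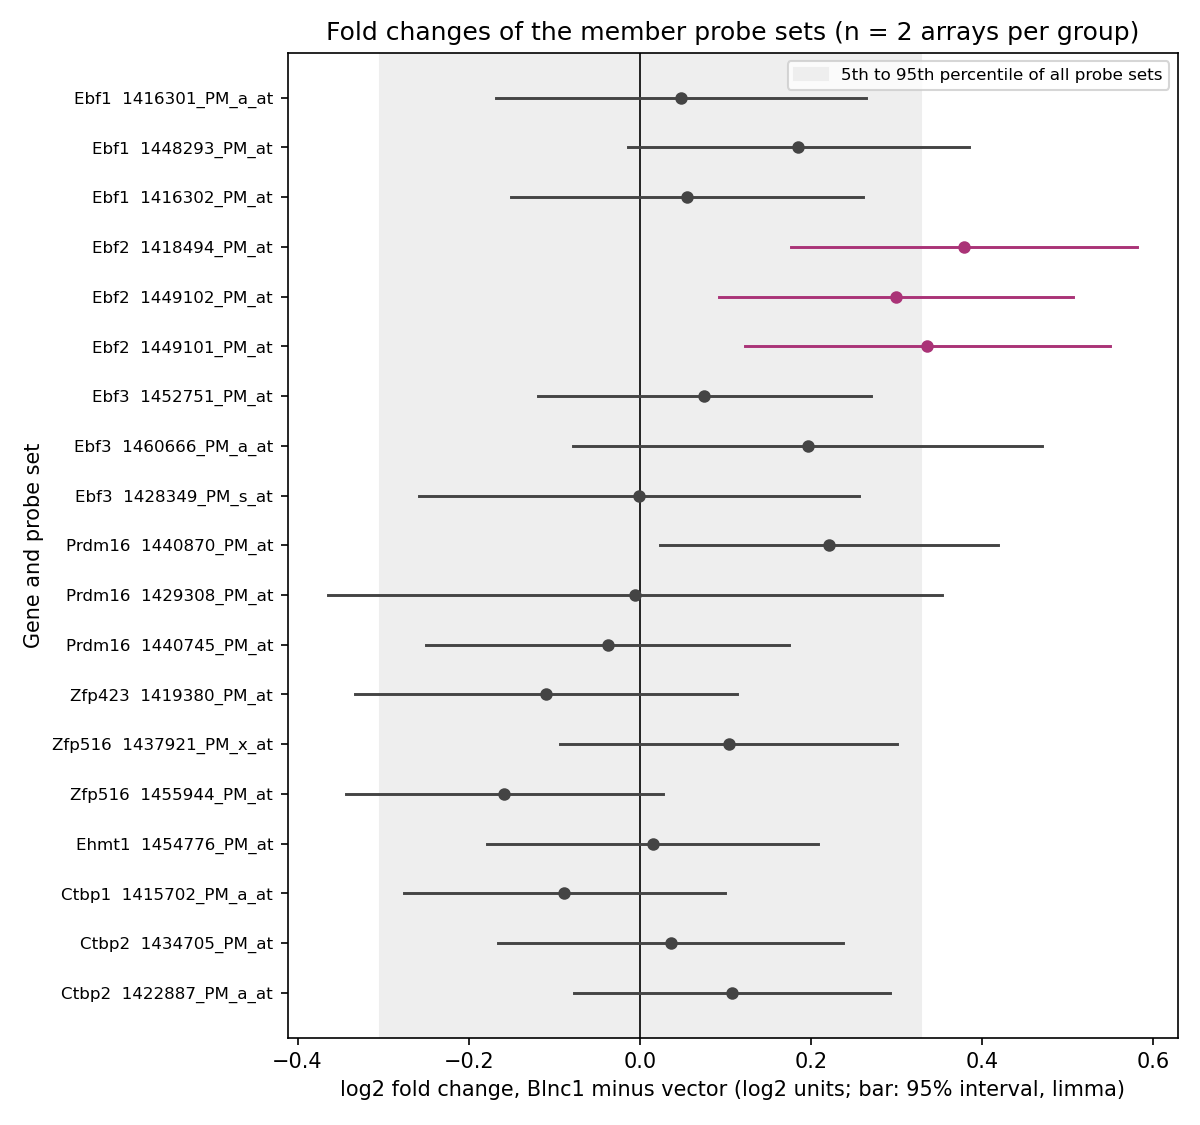
Log2 fold change of Blnc1 over vector for the 19 probe sets (points) with 95% intervals from limma (bars); Ebf2 is in purple, and the grey band spans the 5th to 95th percentile of all probe sets, -0.30 to 0.33. The intervals of the 3 Ebf2 probe sets and of the brightest Prdm16 probe set lie above 0, and the other 15 cross 0.

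Prdm16 is the fate switch with which the other cofactors work. Its brightest probe set (1440870_PM_at) read 6.17 and 6.08 in the vector arrays and 6.31 and 6.38 in the Blnc1 arrays. Both Blnc1 arrays were higher, and the gap of 0.15 between the groups exceeded the distance between replicates, 0.082 (vector) and 0.065 (Blnc1). The log2 fold change was 0.22 ± 0.081 (SE), with a 95% interval of 0.024 to 0.42, and the limma adjusted p was 0.220. The probe set of middle brightness read 4.42 and 4.85 in vector and 4.66 and 4.59 in Blnc1 arrays, so the vector replicates alone spanned 0.43. The dimmest read 3.62 and 3.77 in vector and 3.65 and 3.67 in Blnc1 arrays and ranked in the lowest 0.911% of probe sets by level. Their log2 fold changes were -0.0058 and -0.038, with 95% intervals of -0.36 to 0.35 and -0.25 to 0.17. Of the 3, the brightest alone lay above the array median, at the 54.0th percentile, so a dim signal limits the reading of the gene. With the mean of the 3 probe sets, the log2 fold change of Prdm16 was 0.059 (limma adjusted p = 0.736, in a range of 0.0912 to 0.736 over 12 alternatives).

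Zfp516, the PRDM16-binding activator, was read by 2 probe sets that moved apart. The brighter, whose type is prone to cross-hybridisation, read 6.66 and 6.67 in vector and 6.82 and 6.72 in Blnc1 arrays, at 0.10 ± 0.080 (SE, limma adjusted p = 0.541). The dimmer read 5.06 and 5.03 in vector and 4.87 and 4.90 in Blnc1 arrays, at -0.16 ± 0.076 (SE, limma adjusted p = 0.329). Neither overlapped between the groups, one being higher and the other lower in Blnc1 cells. The mean of both stood at -0.027, so no direction can be given for the gene.

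Zfp423, the commitment factor that binds EBF2, was read by 1 probe set below the array median. It read 5.62 and 5.79 in vector and 5.59 and 5.60 in Blnc1 arrays. Both Blnc1 arrays were lower, but the nearest vector array was only 0.013 away, and the vector replicates were 0.18 apart. The log2 fold change was -0.11 ± 0.091 (SE), with a 95% interval of -0.33 to 0.11.

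The corepressors and the methyltransferase gave intervals that crossed 0. Groups did not overlap for Ctbp1, lower in Blnc1 cells, and for the dimmer Ctbp2 probe set, higher in them. Ctbp1 read 9.75 and 9.69 in vector and 9.64 and 9.63 in Blnc1 arrays, at -0.088 (95% interval -0.28 to 0.10). Ctbp2 read 8.38 and 8.35 against 8.34 and 8.46 on its brighter probe set, at 0.036 (-0.17 to 0.24), and 7.00 and 7.03 against 7.13 and 7.12 on the other, at 0.11 (-0.077 to 0.29). Ehmt1 read 8.54 and 8.62 against 8.58 and 8.61, at 0.015 (-0.18 to 0.21). Its sign turned after each array was centred on its median. For the array values of all 19 probe sets, those of Ebf2 included, the 95% interval of this fit excluded a change of 1.5-fold in either direction. The margin was thin for the brightest Ebf2 probe set, whose upper bound was 1.496-fold. The intervals were not adjusted for their number, and those of other settings were not compared with 1.5-fold. Smaller changes are not excluded by these intervals. Dim probe sets, such as the dimmest of Prdm16 (mean 3.68), may not register a change of the RNA. For their transcripts a change of 1.5-fold is therefore not excluded.

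The genes whose pattern lay closest to those of Ebf2 and Prdm16 were taken by Euclidean distance over the 4 arrays, after each gene was centred on its own mean. Closest to Ebf2 among 1585 candidate genes were Klhl24, an adaptor of a ubiquitin ligase (distance 0.0099 log2 units), Svep1, a secreted matrix protein (0.029), and Echdc3 (0.037). Klhl24 read 7.88 and 7.85 in vector and 8.32 and 8.20 in Blnc1 arrays. Closest to Prdm16 among 2728 candidates were the membrane traffic proteins Yipf4 (0.015) and Snx18 (0.016) and the calcium-binding Pdcd6 (0.027). These distances rest on 4 arrays, so little more than the group difference and the order of the replicates enters them.

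Genes that EBF2 and PRDM16 are known to switch on were read beside the regulators. Of 10 measured brown target genes 8 rose and none fell, with a median log2 fold change of 1.09, while 1.23% of all 10926 genes passed, 0.86% higher and 0.366% lower, and the median over all of them was 0.0073. Ucp1, the uncoupling protein, read 5.01 in both vector arrays and 7.97 and 8.05 in Blnc1 arrays. Cidea, a lipid droplet protein, read 7.37 and 7.31 against 10.37 and 10.56. Cpt1b (1.37), Cox7a1 (1.28), Cox8b (1.13), Dio2 (1.05), Pdk4 (0.92) and Ppara (0.73) were the others that rose, given as log2 fold changes. Elovl3, at 0.27, and Fabp3, at 0.19 with overlapping groups, did not pass and lay below Ebf2. Dio2 and Fabp3 were dim, with means over the 4 arrays of 4.34 and 4.26. The list was put together with earlier results of these samples known, so its direction is no independent evidence. Without vector replicate 1 or without vector replicate 2 there were 5 of the 10 past the threshold, and without Blnc1 replicate 1 or without Blnc1 replicate 2 there were 2. On the log2 scale the change of Ucp1 was 2.997 and that of Cidea 3.12, against 0.38 for Ebf2 and 0.22 for Prdm16 on their brightest probe sets. The difference between the target list and the regulators was not tested.

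**Figure D3:**
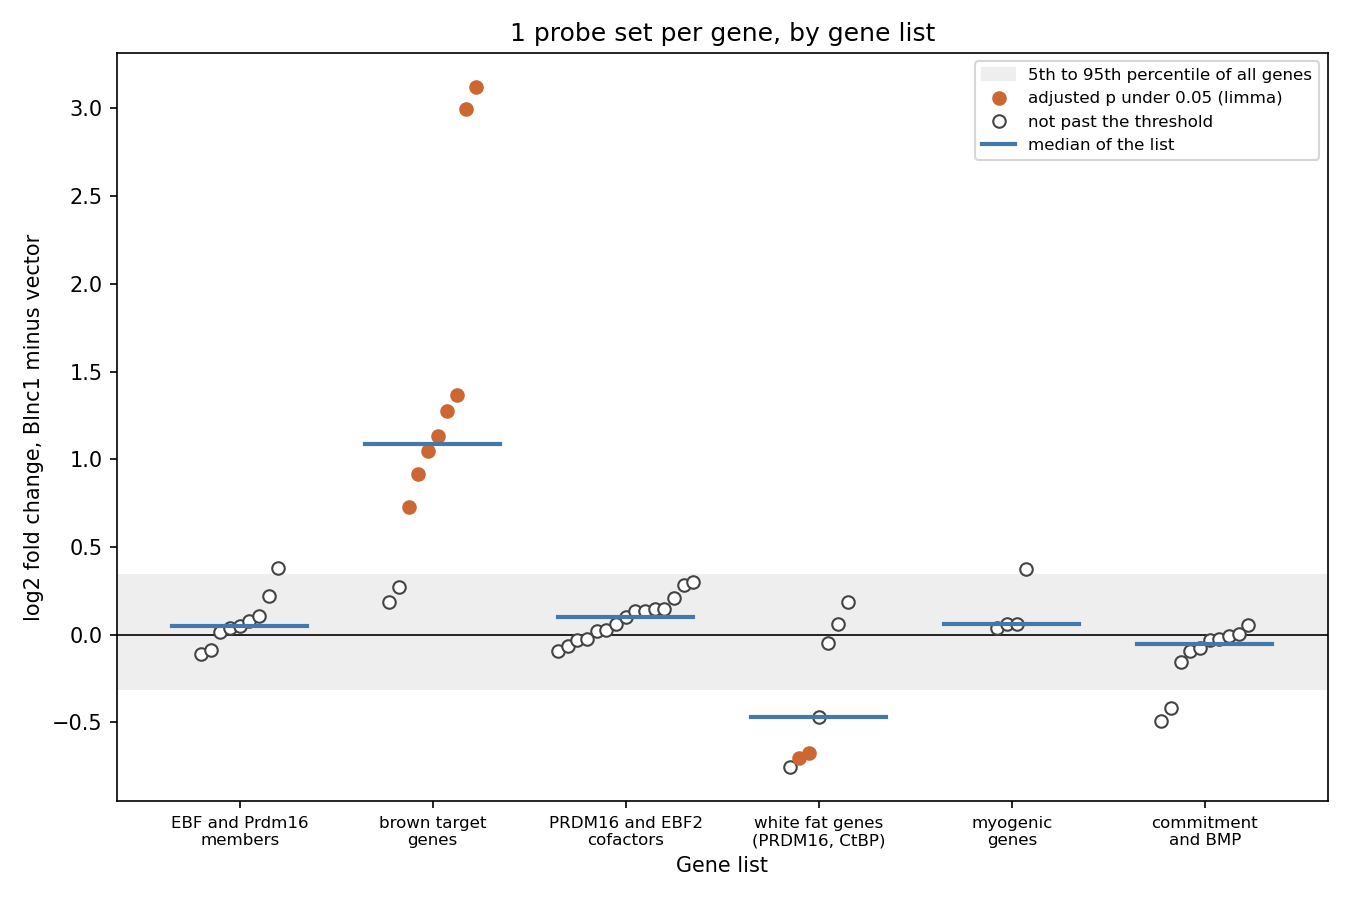
Log2 fold change of Blnc1 over vector with 1 probe set per gene (points) for the members and 5 lists of related genes; filled points passed limma's adjusted p of 0.05, blue lines are list medians and the grey band spans the 5th to 95th percentile of all genes. The brown target genes reach 3.12, whereas the members lie between -0.11 and 0.38.

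Proteins that work with PRDM16 and EBF2 were taken next. Of 15 measured cofactors none passed over all probe sets, 3 had an unadjusted p under 0.05 in limma (18.9% of all probe sets did), and the median log2 fold change was 0.10. With the smallest p were Cebpb, a partner of PRDM16 in opening the brown programme, at 0.30 ± 0.076 (SE), the coactivator Ppargc1b at 0.28 ± 0.075 and the demethylase Kdm1a at 0.21 ± 0.079. Their limma adjusted p lay between 0.129 and 0.232. These values are of the brightest probe set of each gene. The other Kdm1a probe set stood at 0.033 with overlapping groups. The other Cebpb probe sets stood at 0.37 without overlap and, on a dim one, at 0.013 with overlap. With a variance prior that follows the expression level, 2 of the 15 passed.

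Of the genes listed here as white fat genes held down by PRDM16 and the CTBP corepressors, 5 lay below 0 and 2 above. Whether these proteins act on each of them was not tested. Of 7 measured, Retn and Agt fell and none rose, with a median of -0.47. Of all genes 0.366% fell and 0.86% rose, and their median was 0.0073. This list too was put together with earlier results of these samples known, so its direction is no independent evidence. Retn, the adipokine resistin, read 11.75 and 11.74 in vector and 11.13 and 11.02 in Blnc1 arrays, at -0.67 ± 0.081 (SE, limma adjusted p = 0.0380). Agt, the angiotensin precursor, read 9.46 and 9.36 against 8.78 and 8.64, at -0.70 ± 0.090 (SE, limma adjusted p = 0.0423). Hoxc8 (-0.76) missed the threshold at a limma adjusted p of 0.0501, and Psat1 stood at -0.47. The other 3 were Igfbp3 at -0.049, Hoxc9 at 0.063 and Lep at 0.19, none past the threshold. Hoxc9 and Lep were dim, with means over the 4 arrays of 4.80 and 4.02, and their groups overlapped. Neither Retn nor Agt passed when any 1 of the 4 arrays was left out.

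Muscle genes, which EHMT1 and PRDM16 keep off, were dim, and none of the 4 measured passed. Des stood at 0.37 ± 0.11 (SE, limma adjusted p = 0.152) from 4.17 and 4.40 in vector to 4.59 and 4.72 in Blnc1 arrays, while Ckm, Myog and Mylpf lay between 0.038 and 0.060. Among 10 genes of preadipocyte commitment and BMP signalling, the pathway in which ZFP423 acts, none passed and the median was -0.052. The preadipocyte marker Dlk1 read 5.5 and 5.55 in vector and 5.07 and 5.14 in Blnc1 arrays, at -0.42 ± 0.079 (SE, limma adjusted p = 0.0782). Zfp521, a relative of ZFP423 that antagonises EBF proteins in fat precursors, read 5.18 and 4.96 against 4.77 and 4.39, at -0.49 ± 0.15 (SE, limma adjusted p = 0.167). Pdgfrb stood at -0.16.

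The core of the EBF site, CCCNNGGG, was sought in RefSeq promoter windows of the members and of the brown targets that rose. The windows run from 250 bases before to 50 bases after a gene's start (build GRCm38.p6); the core is its own reverse complement, so 1 search covers both strands. It was present in 13.7% of all 32851 windows. Windows were at hand for 8 of the 10 members, while Ebf2 and Zfp516 had no window and were not searched. Ebf3 and Zfp423 had a match, and Zfp423 also had a window without one. The 8 members had 11 windows, so a count of genes is not on the same footing as the share of windows. Of 6 targets with a window, Ppara alone had a match, and Ucp1, Cox7a1, Cox8b, Dio2 and Pdk4 did not. The stretches of 40 bases around the core of Zfp423 (chr8:87804444-87804483, minus strand) and of Ppara (chr15:85735634-85735673, plus strand), both upstream of the start, are shown as the matches in a regulator and in a target that rose, with the core in capitals.
Zfp423: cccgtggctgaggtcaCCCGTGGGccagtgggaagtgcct
Ppara: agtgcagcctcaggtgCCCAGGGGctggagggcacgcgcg
The core ends 20 bases before the start in Zfp423 and 118 bases before it in Ppara. A match describes letters only and was not tested for binding. Sequence outside these windows was not searched, so a gene without a match may hold one elsewhere.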

How the data were processed

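Total RNA was labelled with biotin and hybridised to 1-colour Affymetrix PM Strip arrays, per the labels' protocols. The deposited values are log2 expression values per probe set, made by the authors; the submitters' processing notes list RMA, affy and limma, without versions or settings. The log2 scale was read from the range of 2.70 to 13.3. Raw intensities were not used here. Of 23634 rows, 35 control probe sets were left out. Gene names are those of GEO's platform annotation, and the Entrez IDs of all 9 measured members matched the reference gene table.

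Groups came from the titles. Blnc1 arrays were compared with vector arrays by two-sided moderated tests of a linear model without covariates or a filter on level (limma 3.58.1, R 4.3.3), adjusted by Benjamini-Hochberg over 23599 probe sets with a threshold of 0.05. The test was checked on data simulated from its own model, with changes larger than those of the members. That check does not cover changes of the members' size. Lists use the brightest probe set of each gene, by its mean over the 4 arrays. Named were all members, list genes past the threshold, the 3 smallest p of each of the 5 related lists, and the 3 genes nearest to Ebf2 and Prdm16 (brighter than the median gene, with at least 0.5 times the fold change). Other genes are named where a list is small. Members and lists were chosen with earlier results of these data known. Alternatives were other variance priors, normalizations, filters, thresholds, averaging of the probe sets of a gene, the replicate block and leaving out each array.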

Additional observations from a re-analysis of the deposited data

How the results depend on the processing

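The 3 Ebf2 probe sets kept a positive sign in every alternative in which they were tested. Over the 19 member probe sets, 194 of 209 alternative values kept both sign and side of the threshold, 13 changed sign and 2, both of the brightest Ebf2 probe set, newly passed. Member probe sets past the threshold numbered 1 with a mean-variance trend, with dim probe sets left out, and at an adjusted p of 0.1. Over all probe sets 2174 passed with the trend, 1020 without dim probe sets, 958 at 0.1, 30 with the replicate block and 3 to 38 without single arrays, against 219. The replicate numbers were not shown to pair the arrays (r = 0.089 between same-numbered deviations over 23599 probe sets); under the block 5 brown targets and 0 white fat genes passed, and no member passed. Without single arrays 2 to 5 brown targets and 0 white fat genes passed; the lone array left in a group was then assumed to vary like the other group. White fat genes past the threshold numbered 4 with the trend, without dim probe sets and with gene means, cofactors 2 with the trend and without dim probe sets, and commitment genes 1 with the trend and with gene means. Cofactor medians were 0.090 after repeated quantile normalization, 0.086 after median centring, and 0.059 without dim or without cross-hybridising probe sets, and 0.075 to 0.10 without single arrays. Without dim probe sets the medians were 1.20 for brown targets, -0.67 for white fat genes and -0.023 for commitment genes; without single arrays they were 0.016 to 0.16 for muscle genes and -0.12 to -0.0098 for commitment genes. Signs turned for Ehmt1 after median centring (-0.0010) and for Zfp516 with the gene mean (-0.027). Without single arrays, signs turned in some of the 4 fits for probe sets of Ctbp2, Ebf1, Ebf3, Ehmt1 and Prdm16. Over all 4 fits, those probe sets ranged from -0.022 to 0.094 for Ctbp2 and from -0.016 to 0.11 and -0.0066 to 0.12 for Ebf1. The ranges were -0.13 to 0.13 for Ebf3, -0.026 to 0.056 for Ehmt1, and -0.22 to 0.21 and -0.11 to 0.037 for Prdm16. The cause was not tested. No muscle gene measured was brighter than the median, so that alternative gave no value for them. With 2 arrays a group and no detection calls used here, changes of dim probe sets are the least certain.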
